A study of Mus musculus with 6 samples.

Results

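The Reelin pathway and the transcription factors of Cajal-Retzius cells were examined in mRNA-sequencing data of telencephalon tissue from mice at postnatal day 0. The genes were chosen by name, and 7 of the 8 named genes were among the 22651 genes analysed: Reln, the ligand, Lrp8, a receptor, Dab1, the intracellular adaptor, and the transcription factor genes Trp73, Lhx5, Ebf2 and Ebf3. Vldlr, the other receptor, was not analysed here. All 6 mice carried loxP-flanked Tsc1 on both chromosomes (TSC1 flox/flox). The WT mice (n = 3) had no Cre (Emx1 +/+) and were littermate controls, and the TSC1 mice (n = 3) carried 1 Emx1-cre allele (Emx1-cre/+). Emx1-Cre is active in progenitors of the dorsal telencephalon, so that cells from other sources in the same tissue keep Tsc1. Cre itself differed between the groups along with Tsc1, and the effects of Cre and of the deletion cannot be told apart in this design.

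Reelin is a large secreted glycoprotein that guides migrating neurons into the layers of the cortex. Around birth it is made mainly by Cajal-Retzius cells, early-born neurons just beneath the pia, and also by interneurons and by mitral cells of the olfactory bulb. It binds the lipoprotein receptors Vldlr and Lrp8 (also called ApoER2) on the target neuron, whereupon Src family kinases phosphorylate Dab1, which passes the signal to the cytoskeleton and to phosphoinositide 3-kinase. Cajal-Retzius cells are born at the borders of the pallium, such as the cortical hem and the septum, and p73, Lhx5 and the Ebf factors mark them as they leave.

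Among the 7 genes, none passed the threshold of a Benjamini-Hochberg adjusted p of 0.05 in edgeR's quasi-likelihood test, fitted to 13969 genes, and 1 did in DESeq2 (Dab1). Dab1 was higher in all 3 TSC1 mice than in any WT mouse, by 0.26 on the log2 scale, and was the 1 gene of the 7 with an unadjusted p below 0.05. Reln, Lrp8 and the 4 transcription factor genes had overlapping groups. In the whole fit 212 genes, 1.52% of those tested, passed the adjusted threshold (120 higher and 92 lower in TSC1). An unadjusted p below 0.05 was obtained for 2510 genes (18.0%), and 3166 genes (22.7%) had groups that did not overlap, so that 1 of 7 is near the background on either count. The same shares are the background for the counts of the lists below. The median log2 fold change was 0.02 over the 7 genes and -0.003 over all genes tested.

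Libraries held between 14119365 and 17772865 expected counts, the estimated number of reads per gene summed over genes. Levels are given in TPM, a share of all transcripts that is corrected for transcript length, and fold changes come from the counts, as TSC1 over WT. The 3 values of a group stand in the order of its replicates 1, 2 and 3. The deposited effective length of a gene fell short of its length by a median of 48.66, 45.81 and 49.7 bases in the WT mice. In the TSC1 mice this gap was 55.08, 57.62 and 56.16 bases, with no overlap. The effect of this library difference and that of genotype cannot be told apart in this design. The deposited Tsc1 level was 50.23, 31.99 and 28.42 TPM in the WT mice, against 27.09, 21.73 and 22.42 TPM in the TSC1 mice. The groups did not overlap, and the log2 fold change was -0.66 (SE 0.175, 95% interval -1.05 to -0.26, edgeR adjusted p = 0.09998). Reads from the exons that Cre leaves in place count toward this level, and so do cells without Cre. Tissue markers set some libraries apart. WT replicate 1 held 36.44 TPM of the mitral cell gene Cdhr1 against 3.58 to 8.26 TPM in the other 5 libraries, and choroid plexus markers summed to 1186 to 2495 TPM in WT against 36.9, 114 and 876 TPM in the TSC1 mice.

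Deposited transcripts of 3 of these genes start beside a RefSeq promoter window that overlaps no exon, and the 250 bases before the start are shown, 5′ to 3′ on the gene's strand (GRCm38.p6), to place what was counted. They begin with the ligand and go on with the factor that marks its source and an Ebf factor. RefSeq windows were given for 6 of the 8 named genes, Vldlr included. Capitals mark CCCNNGGG, a core of Ebf binding sites that was searched on both strands (it reads alike on both).
Reln, chr5:22344706-22344955, minus strand, upstream of the gene: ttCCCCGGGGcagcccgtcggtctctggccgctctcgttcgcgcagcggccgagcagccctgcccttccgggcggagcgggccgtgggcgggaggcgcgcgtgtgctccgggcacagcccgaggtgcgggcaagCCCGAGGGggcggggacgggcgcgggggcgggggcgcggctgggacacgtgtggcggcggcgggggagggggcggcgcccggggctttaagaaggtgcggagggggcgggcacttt
Trp73, chr4:154097174-154097423, minus strand, in an intron of the longer transcripts: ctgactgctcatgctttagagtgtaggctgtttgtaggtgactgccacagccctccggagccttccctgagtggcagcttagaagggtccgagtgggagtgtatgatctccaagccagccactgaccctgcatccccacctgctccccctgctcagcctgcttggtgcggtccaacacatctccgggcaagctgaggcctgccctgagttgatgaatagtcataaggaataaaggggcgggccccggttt
Ebf3, chr7:137314446-137314695, minus strand, upstream of the gene: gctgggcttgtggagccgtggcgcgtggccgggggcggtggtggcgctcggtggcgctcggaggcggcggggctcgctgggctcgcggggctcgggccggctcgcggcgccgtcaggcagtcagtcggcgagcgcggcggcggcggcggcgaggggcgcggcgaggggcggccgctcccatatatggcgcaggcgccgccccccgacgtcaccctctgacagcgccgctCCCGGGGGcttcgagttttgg
The Reln and Ebf3 windows were each 80.0% G and C, with 37 and 43 CpG dinucleotides. The medians over all 32851 mouse promoter windows were 52.4% and 6. The Trp73 window had 58.4% and 6 CpG dinucleotides, and it precedes the internal start from which 2 of the 3 Trp73 transcripts in the tables run. Transcripts from an internal start of Trp73 encode the short form of p73, which lacks the activation domain. The Reln window held 2 CCCNNGGG matches, the Ebf3 window 1 and the Trp73 window 0, and 11.8% of 32851 windows of the same length held at least 1. That share is not matched to the G and C content of the Reln and Ebf3 windows. The letters TCACACC, part of a T-box site and searched on both strands, were in none of the 3 windows and in 3.33% of all windows. A match is a match of letters and shows no binding.

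Reln (chromosome 5, 21884454 to 22344702, minus strand) encodes the ligand. Its level was 159.97, 92.15 and 101.08 TPM in the WT mice, and 130.41, 95.99 and 116.52 TPM in the TSC1 mice. WT replicate 1 was the highest and WT replicate 2 the lowest of the 6, and the TSC1 mice lay between them. WT averaged 118 ± 36.8 TPM and TSC1 averaged 114 ± 17.3 TPM (SD, n = 3 each). In edgeR Reln differed by -0.06 on the log2 scale (SE 0.180, 95% interval -0.47 to 0.34, edgeR adjusted p = 0.889), an interval that runs from 0.723-fold to 1.27-fold. The sign rested on single libraries. It was 0.19 (SE 0.117, edgeR adjusted p = 0.352) without WT replicate 1 and 0.04 (adjusted p = 0.954) without TSC1 replicate 2. At 5736 to 10817 counts per library, Reln was the most deeply counted of the 7 genes. In bulk tissue, fewer cells of a type and less RNA per cell cannot be told apart.

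**Figure D1:**
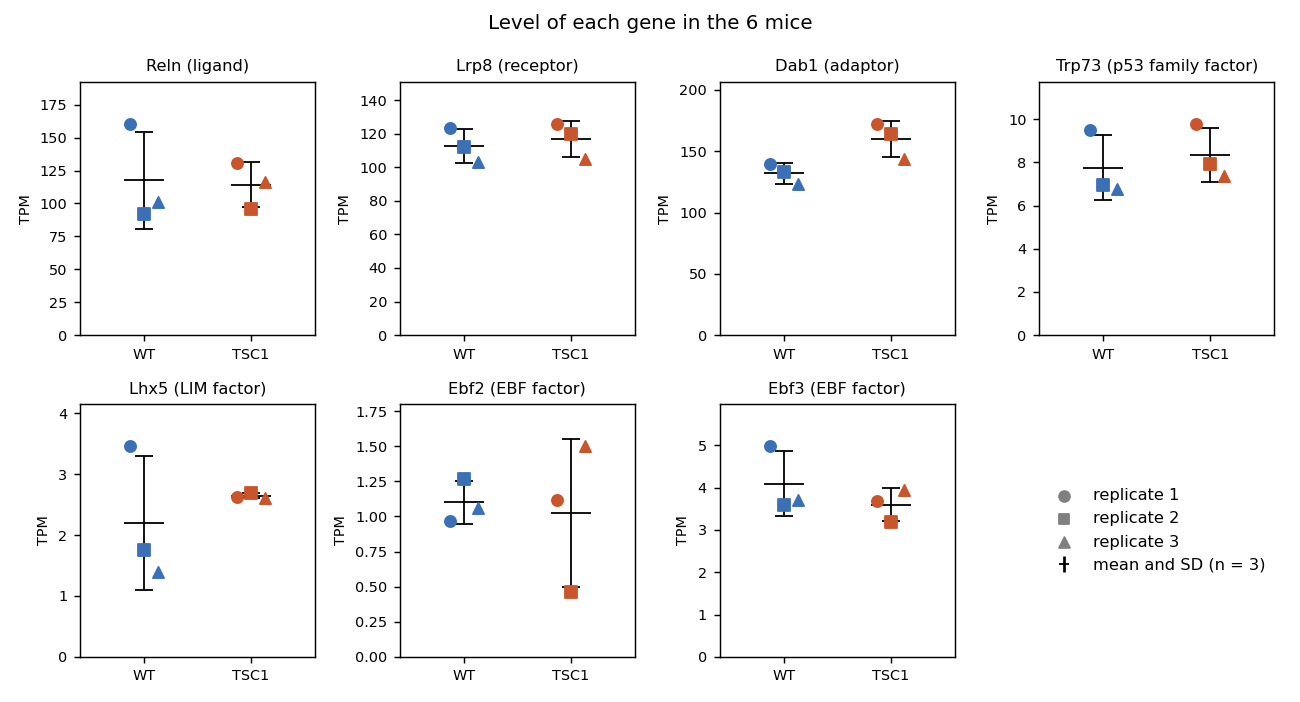
Level in TPM (y axis, from 0) of Reln, Lrp8, Dab1, Trp73, Lhx5, Ebf2 and Ebf3 in the 3 WT (blue) and 3 TSC1 (orange) mice, with the marker shape giving the replicate number and bars the mean and SD. The 3 TSC1 mice sit at 143.66 to 171.85 TPM of Dab1, above the 3 WT mice at 123.15 to 139.96 TPM, and in the other panels the groups overlap.

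Other cells that make Reln were read beside it. WT replicate 1, the highest in Reln, was also the highest in Cdhr1, and the log2 fold change of Cdhr1 was -1.66 (SE 0.621, edgeR adjusted p = 0.200). All 5 mitral cell markers had a value in the tables, none of the 4 that were tested passed in edgeR (1 with an unadjusted p below 0.05) or in DESeq2, and their levels summed to 67.2 to 125 TPM in WT and 70.2 to 90.5 TPM in TSC1. The list did not move one way. Its most abundant genes, Slc17a6, a vesicular glutamate transporter, and Eomes, a T-box factor that also marks intermediate progenitors of the cortex, had log2 fold changes of 0.03 and 0.46 (edgeR adjusted p = 0.915 and 0.307). Eomes was highest in TSC1 replicate 1 at 29.28 TPM, against 24.57 TPM in WT replicate 1, and passed without WT replicate 1 (0.78, edgeR adjusted p = 0.0397). Nmb, a neuropeptide gene, gave -0.46 (edgeR adjusted p = 0.431). Tbx21, a defining factor of mitral and tufted cells, named here after its values were seen, was at 1.79 TPM in WT replicate 1 and at 0.00 to 0.53 TPM elsewhere. The part of these cells in the Reln level was not tested.

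Markers of GABAergic interneurons, which come from the ventral telencephalon, mostly outside the Emx1-Cre lineage, were read next. Of 9 such markers, 4 fell in TSC1, 0 rose and 5 did not pass in edgeR. For 7 of the 9 the groups did not overlap, beside 22.7% of all genes tested. The list was not uniform, with log2 fold changes from -1.19 to -0.03. The synthesis enzymes Gad1 and Gad2, the vesicular transporter Slc32a1 and the migration factor Lhx6 had log2 fold changes of -0.83, -1.03, -1.19 and -0.54 (edgeR adjusted p = 0.0479, 0.0318, 0.0479 and 0.0203). Gad1, Gad2 and Slc32a1 are shared by GABAergic neurons in general, so they do not single out interneurons. The 9 marker levels summed to 995, 1037 and 1130 TPM in the WT mice and to 571, 533 and 841 TPM in the TSC1 mice, with no overlap. Sst and Npy, the most abundant of the 9, weighed most in these sums, at means of 403 and 305 TPM in WT. In TSC1 their means were 206 and 221 TPM. Neither passed in edgeR (adjusted p = 0.0960 and 0.107), and Npy passed with DESeq2 (adjusted p = 0.0201). None of the 9 passed without WT replicate 2, without WT replicate 3, without TSC1 replicate 1 or without TSC1 replicate 2. In these fits the calls over all genes also fell, from 212 to 29, 35, 37 and 37. Those counts are the background for the lost calls below. The part of interneurons in the Reln level was not tested.

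**Figure D2:**
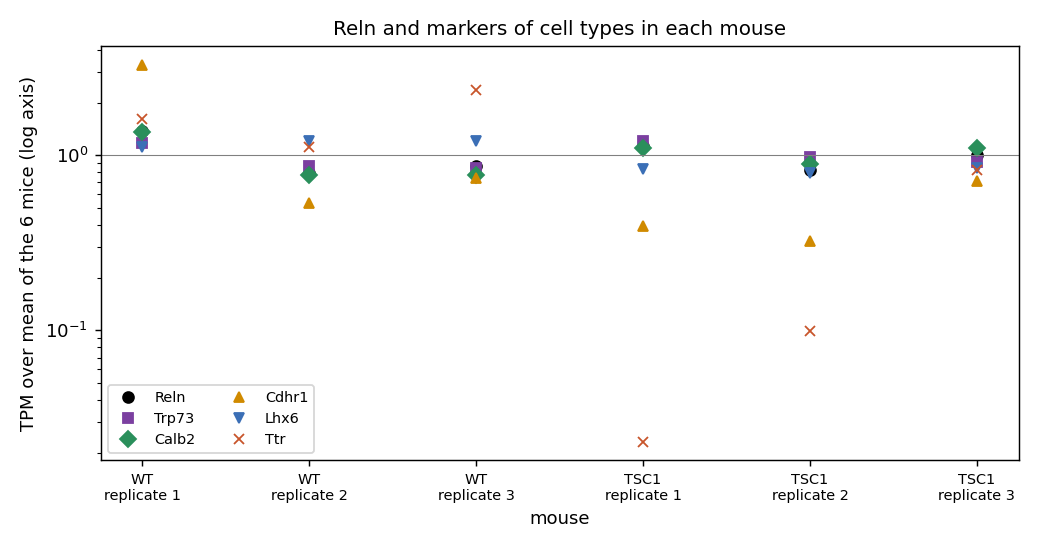
TPM of Reln, Trp73, Calb2, Cdhr1, Lhx6 and Ttr in each mouse (x axis), divided by the mean of the 6 mice (y axis, log scale), with 1 point per gene and mouse. Reln, Trp73 and Calb2 span a narrower range than Cdhr1 and Ttr, Cdhr1 is far above it in WT replicate 1, Lhx6 is above 1 in the WT mice and below it in the TSC1 mice, and Ttr is lowest in TSC1 replicate 1.

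The enzymes that cut Reelin and the other ligands of its receptors formed a list of 8 genes, of which 0 rose and 0 fell in edgeR (1 with an unadjusted p below 0.05, and 0 called by DESeq2). Apoe, the lipid carrier that binds both receptors, was the most abundant at a mean of 577 TPM and had a log2 fold change of 0.04 (SE 0.0930, edgeR adjusted p = 0.873). Clu, a further ligand, gave 0.08 and Plat, a protease that cuts Reelin, gave 0.06. Adamts3, the metalloprotease that inactivates Reelin, was at 26.95, 23.10 and 22.23 TPM in the WT mice and at 36.09, 35.98 and 24.67 TPM in the TSC1 mice. TSC1 replicate 3 lay within the WT range and the other TSC1 mice above it. The log2 fold change of Adamts3 was 0.39 (SE 0.134, edgeR adjusted p = 0.171), and it passed the threshold only without TSC1 replicate 3 (adjusted p = 0.00792) among the alternatives run. The median log2 fold change of the list was 0.05.

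Lrp8 (chromosome 4, 107802261 to 107876840, plus strand) encodes the receptor that was analysed. Its level was 123.12, 112.35 and 102.94 TPM in the WT mice, and 125.51, 119.94 and 105.09 TPM in the TSC1 mice. The groups interleaved. For Lrp8 the log2 fold change was 0.02 (SE 0.0762, 95% interval -0.15 to 0.20, edgeR adjusted p = 0.899), and the interval runs from 0.903-fold to 1.15-fold. On the log2 scale the interval of Lrp8 was the narrowest of the 7 after that of Dab1. Its sign was not fixed: the value was -0.01 with upper-quartile normalization, and also below 0 without WT replicate 3, without TSC1 replicate 1 and without TSC1 replicate 2 (lowest -0.02).

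Among 9 analysed relatives of Lrp8 in the LDL receptor family, 1 rose in TSC1, 0 fell and 8 did not pass. Lrp4, a receptor for agrin and a brake on Wnt signaling, stood at 9.98, 7.95 and 7.84 TPM in the WT mice, and at 18.82, 15.86 and 13.82 TPM in the TSC1 mice. Every TSC1 mouse was above every WT mouse. The log2 fold change of Lrp4 was 0.89 (SE 0.129, edgeR adjusted p = 0.0195), and the call was lost without WT replicate 2, WT replicate 3, TSC1 replicate 1 or TSC1 replicate 2. The more abundant members Lrp1, Lrp12, Lrp10 and Lrp6 had log2 fold changes of 0.27, -0.10, -0.06 and -0.15, and none passed the threshold. Lrp1, an endocytic receptor, did pass without WT replicate 1 (log2 fold change 0.40, edgeR adjusted p = 0.0353). The median log2 fold change of the family was 0.23, beside -0.003 over all genes tested.

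Dab1 (chromosome 4, 103619359 to 104744844, plus strand) encodes the adaptor that binds the cytoplasmic tails of both receptors. Its level was 139.96, 132.77 and 123.15 TPM in the WT mice, and 171.85, 164.47 and 143.66 TPM in the TSC1 mice. The lowest TSC1 mouse, replicate 3, lay just above the highest WT mouse, replicate 1. WT averaged 132 ± 8.43 TPM and TSC1 averaged 160.0 ± 14.6 TPM (SD, n = 3 each). The log2 fold change was 0.26 (SE 0.0700, 95% interval 0.10 to 0.42, unadjusted p = 0.00476, adjusted p = 0.103 by edgeR), that is 1.196-fold with an interval of 1.07-fold to 1.33-fold. It did not pass the adjusted threshold. DESeq2 gave 0.26 with an adjusted p of 0.0431, and edgeR without TSC1 replicate 3 gave 0.32 with an adjusted p of 0.0310. Dab1 was higher in TSC1 under every alternative that was run, between 0.23 and 0.32.

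Dab1 was set beside its ligand in each mouse. Within each group the mouse highest in Reln, replicate 1, was also highest in Dab1. The ratio of Reln to Dab1 in TPM was 1.14, 0.694 and 0.821 in the WT mice, and 0.759, 0.584 and 0.811 in the TSC1 mice, with overlap. Across the 6 mice, Pearson's r of log2 levels was -0.06 between Reln and Dab1, 0.32 between Reln and Lrp8 and 0.56 between Lrp8 and Dab1, as a description that pools the groups, whose Dab1 levels did not overlap.

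Signal transduction below Dab1 was read from 21 analysed genes, of which 0 rose and 0 fell in edgeR, with 13 above and 8 below 0 (11 and 10 with upper-quartile normalization). The 4 most abundant were Pafah1b1, the lissencephaly gene that binds dynein, Akt1, a kinase below phosphoinositide 3-kinase, the adhesion molecule Cdh2 and the Src family kinase Fyn. They stood at means of 452, 365, 265 and 217 TPM, with log2 fold changes of 0.05, -0.08, 0.004 and -0.02. For 4 of the 21 the unadjusted edgeR p was below 0.05, beside 18.0% of all genes tested. For 6 of the 21 the groups did not overlap, beside 22.7% of all genes, so that both counts were near the background. Pik3r1, the regulatory subunit of phosphoinositide 3-kinase, named after its values were seen, had the largest difference of the list. It was at 162.63, 123.01 and 113.03 TPM in the WT mice and at 210.72, 203.58 and 157.92 TPM in the TSC1 mice, where TSC1 replicate 3 was below WT replicate 1 in TPM but above it in normalised counts. Its log2 fold change was 0.48 (SE 0.127, edgeR adjusted p = 0.0974). It passed with DESeq2 (adjusted p = 0.00487), and in edgeR without WT replicate 1 (0.0309) and without TSC1 replicate 3 (0.0232). The study's own network model, built from both RNA and protein, lists Pik3r1 among the Pik3/Akt components lowered in TSC1, the other direction. The paper's text does not say whether that entry rests on RNA or protein, and the values here are RNA only. The median of the list was 0.04.

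**Figure D3:**
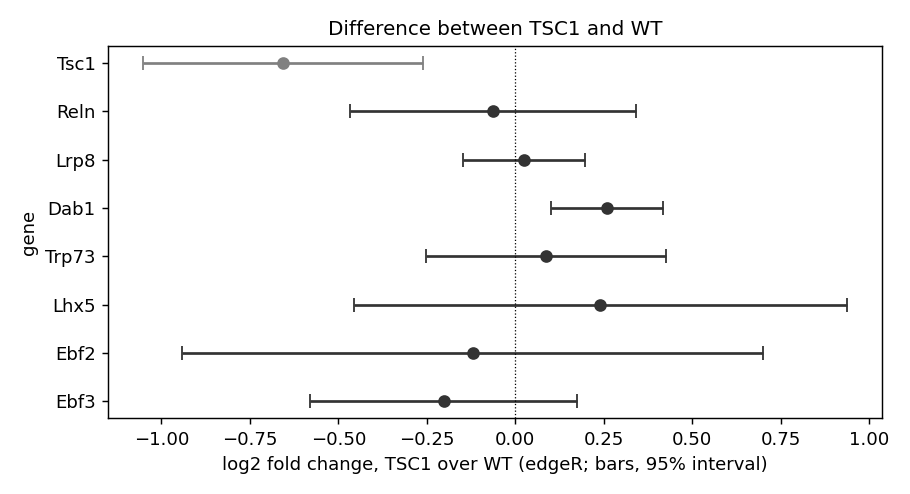
Log2 fold change of TSC1 over WT (x axis) for Tsc1 and the 7 genes (y axis), with points the edgeR estimate and bars its 95% interval, from 3 mice per group. The bars of Tsc1 and Dab1 leave out 0, at -1.05 to -0.26 and 0.10 to 0.42, and the bars of the other 6 genes cross it, widest for Ebf2 and Lhx5.

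The transcription factor genes lay far below the signaling genes, as levels per transcript length. The mean over the 6 mice was 146 TPM for Dab1, 116 TPM for Reln, 115 TPM for Lrp8, 8.05 TPM for Trp73, 3.85 TPM for Ebf3, 2.42 TPM for Lhx5 and 1.06 TPM for Ebf2. The ranges over mice did not overlap between Lrp8 and Trp73 or between Trp73 and Ebf3. Dab1 was above Reln in 5 of 6 mice and Reln above Lrp8 in 3 of 6, so that these neighbours were not separated. Ebf3 was above Lhx5, and Lhx5 above Ebf2, in 6 of 6 mice each, although their ranges overlapped.

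Trp73 (chromosome 4, 154056253 to 154140208, minus strand) encodes p73, a p53 relative needed for Cajal-Retzius cells to survive. Its level was 9.5, 6.97 and 6.79 TPM in the WT mice, and 9.76, 7.92 and 7.37 TPM in the TSC1 mice. Replicate 1 was the highest of both groups and the ranges overlapped. For Trp73 the log2 fold change was 0.09 (SE 0.150, 95% interval -0.25 to 0.43, edgeR adjusted p = 0.797), and it was -0.03 without TSC1 replicate 1. The ratio of Reln to Trp73 in TPM was 16.8, 13.22 and 14.9 in the WT mice, and 13.4, 12.1 and 15.8 in the TSC1 mice. It spanned a narrower relative range in the WT mice than Reln did, and the groups overlapped. The related factor Trp53, which is broadly expressed, was at a mean of 50.7 TPM with a log2 fold change of -0.02 (edgeR adjusted p = 0.948).

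Lhx5 (chromosome 5, 120431699 to 120441223, plus strand) encodes a LIM homeodomain factor of the cortical hem and of Cajal-Retzius cells. Its level was 3.46, 1.75 and 1.40 TPM in the WT mice, and 2.63, 2.69 and 2.61 TPM in the TSC1 mice. The 3 TSC1 mice lay close together, inside the wide WT range, of which WT replicate 1 was the top. At 20 to 54 counts per library the log2 fold change was 0.24 (SE 0.309, 95% interval -0.46 to 0.94, edgeR adjusted p = 0.721). Without WT replicate 1 it was 0.69 (adjusted p = 0.141). The interval runs from 0.729-fold to 1.91-fold. Its paralog Lhx2, a selector of cortical identity that is restricted from the hem, was at a mean of 139 TPM with a log2 fold change of 0.27 (SE 0.0748, edgeR adjusted p = 0.107).

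Ebf2 (chromosome 14, 67233292 to 67430918, plus strand) encodes an Ebf factor carried by Cajal-Retzius cells. It stood at 0.97, 1.27 and 1.06 TPM in the WT mice, and at 1.12, 0.46 and 1.5 TPM in the TSC1 mice. TSC1 mice included both the lowest and the highest value. The counts ran from 13 to 48 per library. For Ebf2 the log2 fold change was -0.12 (SE 0.364, 95% interval -0.94 to 0.70, edgeR adjusted p = 0.895), and with 1 mouse left out it ran from -0.52 without TSC1 replicate 3 to 0.21 without TSC1 replicate 2.

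Ebf3 (chromosome 7, 137193673 to 137314445, minus strand) encodes another Ebf factor of these cells. It stood at 4.98, 3.58 and 3.72 TPM in the WT mice, and at 3.68, 3.18 and 3.94 TPM in the TSC1 mice. WT replicate 1 was again the highest, and the other 5 mice lay within a narrow span. For Ebf3 the log2 fold change was -0.20 (SE 0.167, 95% interval -0.58 to 0.18, edgeR adjusted p = 0.566), and it was -0.06 without WT replicate 1. The ratio of Ebf3 to Ebf2 in TPM ran from 2.82 to 5.13 in WT and from 2.63 to 6.91 in TSC1.

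Other markers of Cajal-Retzius cells were read as a list of 10 analysed genes, of which 0 rose, 1 fell and 9 did not pass. Calb2, the calcium-binding protein calretinin, is a common stain for these cells and also marks some interneurons. It was at 85.44, 48.45 and 48.44 TPM in the WT mice and at 69.07, 55.78 and 68.41 TPM in the TSC1 mice, with WT replicate 1 the highest as for Reln. The log2 fold change of Calb2 was 0.06 (SE 0.197, 95% interval -0.38 to 0.50, edgeR adjusted p = 0.904). Tbr1, a factor shared with deep-layer neurons, Cxcr4, the chemokine receptor that holds the cells beneath the meninges, and the cell cycle inhibitor Cdkn1a gave -0.01, -0.25 and -0.29, and none passed.

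Cacna2d2, a calcium channel subunit, was the gene that fell. It was at 30.36, 28.31 and 30.61 TPM in the WT mice and at 19.87, 17.95 and 22.36 TPM in the TSC1 mice, so that all TSC1 mice were below all WT mice. For Cacna2d2 the log2 fold change was -0.59 (SE 0.0994, edgeR adjusted p = 0.0297), and the call was lost without WT replicate 2, WT replicate 3, TSC1 replicate 1 or TSC1 replicate 2. Cacna2d2 is also expressed by interneurons, whose markers are given above with Reln, and their part in this fall was not tested. Ebf1, named after its values were seen, was at 13.50, 17.32 and 21.83 TPM in the WT mice and at 2.03, 2.49 and 11.07 TPM in the TSC1 mice. It encodes an Ebf factor that is also abundant in the ventral telencephalon. Its log2 fold change was -1.75 (SE 0.520, edgeR adjusted p = 0.124), and it passed without TSC1 replicate 3 (-2.99, edgeR adjusted p = 0.000613). Of the 10 log2 fold changes, 2 were above and 8 below 0 (1 and 9 with upper-quartile normalization), with a median of -0.18. The 10 levels summed to 350 to 454 TPM in WT and 345 to 370 TPM in TSC1.

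Genes of the regions where Cajal-Retzius cells are born were also read. Of 12 such genes with a value, 9 had enough counts to be tested, and 0 rose and 0 fell in edgeR. The hem genes Rspo2, Wnt5a and Rspo3, secreted factors of Wnt signaling, had log2 fold changes of -0.04, -0.09 and 0.10. Zic1, a zinc finger factor of the septum and the meninges, was at 34.71, 31.09 and 47.13 TPM in the WT mice and at 21.85, 15.09 and 24.35 TPM in the TSC1 mice. All TSC1 mice were below all WT mice, and the log2 fold change was -0.91 (SE 0.203, edgeR adjusted p = 0.0647). Zic1 passed with DESeq2 (adjusted p = 0.000292), without the filter on low counts (0.0355) and without TSC1 replicate 3 (0.0206). In the list of 9 tested genes, 3 had an unadjusted p below 0.05 in edgeR and 3 were called by DESeq2. Meningeal markers, read beside Zic1, summed to 277 to 446 TPM in WT and 178 to 365 TPM in TSC1, with 9 of 9 log2 fold changes below 0 and 0 that passed in edgeR or DESeq2 (2 with an unadjusted p below 0.05). Without TSC1 replicate 3, where Zic1 also passed, edgeR called 3 of them lower, and without the filter on low counts it called 0. Their part was not tested.

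**Figure D4:**
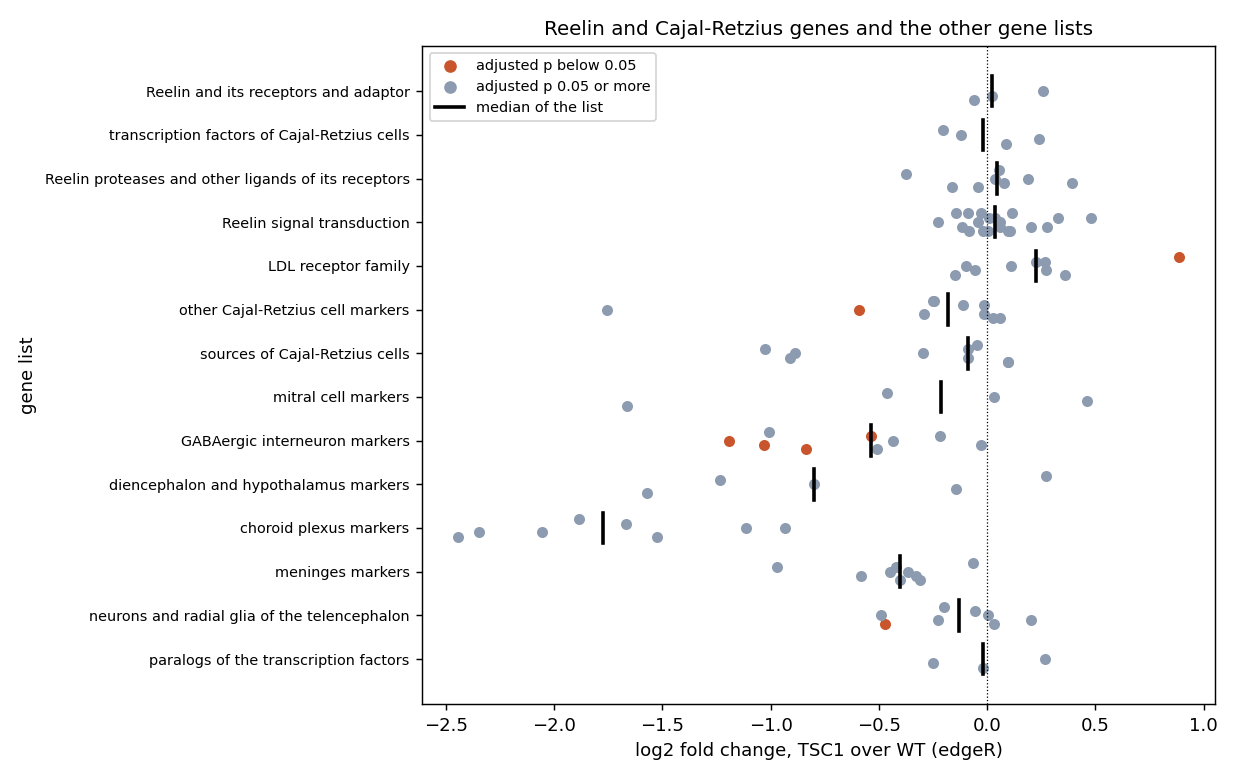
Log2 fold change of TSC1 over WT by edgeR (x axis) for each tested gene of 14 lists (y axis, 1 point per gene), with orange points past an adjusted p of 0.05 and the bar at the median of the list. The medians are 0.02 and -0.02 for the 2 lists at the top and -0.18 for the other Cajal-Retzius markers, against -0.40 for the meninges, -0.54 for the interneuron, -0.80 for the diencephalon and -1.78 for the choroid plexus list.

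The remaining lists describe what else the tissue held. All 8 choroid plexus markers were below 0 with groups that did not overlap and a median of -1.78, and 0 passed in edgeR, although the unadjusted p was below 0.05 for all 8. DESeq2 called 4 of them, and edgeR called 6 without TSC1 replicate 3. Diencephalic and hypothalamic markers summed to 15.4 to 22.5 TPM in WT and 10.6 to 20.1 TPM in TSC1, and 0 of 5 tested passed in edgeR or DESeq2 (0 with an unadjusted p below 0.05). Without TSC1 replicate 3, edgeR called 1 of them, Nkx2-1, a factor of the hypothalamus and also of the ventral telencephalon (-2.64, adjusted p = 0.00724). Of 8 markers of telencephalic neurons and radial glia, 1 fell, the progenitor factor Sox2 (log2 fold change -0.47, edgeR adjusted p = 0.0297, lost without WT replicate 2, WT replicate 3, TSC1 replicate 1 or TSC1 replicate 2), and the 8 summed to 5798 to 6213 TPM in WT and 5599 to 6482 TPM in TSC1. Of 3 tested paralogs of the transcription factors, 0 passed in edgeR or DESeq2 (1 with an unadjusted p below 0.05).

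Transcript use was read from the deposited gene length, which is the mean over a gene's transcripts weighted by their share. For Dab1 it was 5164 ± 39.6 bases (SD, n = 3) in WT and 5191 ± 46.4 bases in TSC1, a difference of 27.2 bases (2-sided exact permutation p = 0.5). For Trp73 it was 4808 ± 52.2 bases in WT and 4817 ± 34.6 bases in TSC1 (exact permutation p = 0.8). For Lrp8, Ebf2 and Ebf3 the exact permutation p was 0.6, 0.9 and 0.8, and the adjusted p over the 5 genes with several transcripts was 0.9 for each. With 3 mice against 3 this test cannot give a p below 0.1. Reln and Lhx5 have 1 transcript each in the tables.

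The genes most like Reln and Trp73 across the 6 mice were sought among 13569 tested genes with a mean of at least 1 TPM, by Pearson's r of normalised log2 counts. Nearest to Reln were Peg3 (r = 0.991), Peg3as (0.987), Xiap (0.986), Amigo1 (0.985) and Spag5 (0.981). Peg3 is an imprinted zinc finger gene and Peg3as lies antisense to it, so that without strand their reads cannot be told apart. Nearest to Trp73 were Ybey (r = 0.996), Synj2bp (0.991), Angpt1 (0.986), Herc4 (0.985) and Gm16386 (0.982). Neither group of 5 held another of the 7 genes. Between the 7 genes themselves r reached 0.82 for Reln and Ebf3, 0.81 for Lrp8 and Trp73 and 0.74 for Reln and Trp73, and was lowest at -0.60 for Dab1 and Ebf3. These are descriptions over 6 libraries that share depth and genotype differences.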

How the data were processed

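Total RNA of telencephalon tissue was sequenced from 6 mice, 3 per group, with groups taken from the labels. The authors mapped trimmed reads to mm10 (MapSplice2) and estimated gene abundance with RSEM 1.2.12. The RefSeq release is not given in the sources used here. The deposited expected count is RSEM's estimate of reads per gene, with no normalization. The deposited TPM divides it by the effective length and scales it over all genes, and the deposited FPKM, not used here, divides by length and by reads in the sample.

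Rounded expected counts entered a fit with edgeR 4.0.16 in R 4.3.3 (TMM, filterByExpr, quasi-likelihood test, Benjamini-Hochberg over all genes tested, threshold 0.05). The fits were first tried on simulated counts. These gave every gene the same spread beyond sampling noise and held no library set apart by its tissue content. At these depths 3 counts equal 0.169 to 0.212 CPM. Replicate pairs of a group differed by more than sampling noise (chi-square per degree of freedom 5.68 to 17.4). Intervals are at 95%. DESeq2 1.42.0 and limma 3.58.1 on log2(TPM + 1) and log2(TPM + 0.1) were alternatives, with other normalizations, filters, lengths as offsets, a replicate block and each mouse left out in turn. Length was compared with exact permutation tests.

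The genes and lists were chosen with earlier results of these data known. Apart from the 8 genes and Tsc1, the rule for names was every list gene past the threshold and up to 4 of the highest mean TPM per list, and the 5 genes most like Reln and the 5 most like Trp73. Tbx21, Pik3r1 and Ebf1 fall outside it and were named after their values were seen. Positions are from GENCODE M21 and promoters from RefSeq, both on GRCm38, the assembly of mm10. Vldlr and 6 other listed genes were not analysed here.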

Additional observations from a re-analysis of the deposited data

How the results depend on the processing

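The count of genes past the threshold was 212 in edgeR, and it was 637 with DESeq2, 346 with no filter on low counts and 551 with a replicate block. It ran from 29 to 799 when 1 mouse was left out. The count among the 7 Reelin and Cajal-Retzius genes was 0, and it was 1 with DESeq2 and 1 with the replicate block, each time Dab1 (log2 fold change 0.261 with DESeq2 and 0.257 with the block, adjusted p = 0.0431 and 0.04997). With 1 mouse left out that count ran from 0 to 1, and the log2 fold change of Dab1 ran from 0.226 to 0.319, past the threshold without TSC1 replicate 3. Reln ran from -0.206 to 0.192 with 1 mouse left out, and its sign reversed to 0.192 without WT replicate 1. The causes were not tested. Lrp8, Trp73, Lhx5, Ebf2 and Ebf3 stayed short of the threshold in every alternative that was run. The replicate numbers are shared labels and no source ties them to a litter or day: same-numbered mice had deviations that correlated at 0.267, -0.133 and 0.318, so the block result is given here alone. Under the block Tsc1 passed as well (-0.63, adjusted p = 0.0217), as it did with DESeq2 (-0.65, adjusted p = 0.00333). Lhx5 and Ebf2, with 13 to 54 counts per library, had the widest intervals of the 7 genes.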
